A study of Mus musculus with 18 samples.

Results

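The cytosolic ribosomal protein genes were followed in dorsal skin of mice whose barrier was disrupted by tape stripping, with and without an extract given by mouth. Members were all probe sets of the array whose only gene symbol was Rpl or Rps followed by a digit, or Rplp0, Rplp1, Rplp2 or Rpsa, without the Rps6k kinases. This gave 107 of 45037 probe sets, for 51 genes. Of these, 86 probe sets of 47 genes varied by at least 0.01 on the deposited log2 scale over the 18 arrays. The other 21 were constant over all arrays and carried no information. The varying members were thus selected on their measured range over the same arrays, so all counts over them are descriptions. Another 109 probe sets, whose several symbols include an Rpl or Rps name, were left out. Rps19bp1 met the symbol rule although its protein, a regulator of the deacetylase Sirt1 that binds Rps19, is not a subunit.

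The mice were males of the albino hairless strain HR-1, 6 weeks old by the labels, and each group had 6 arrays labelled as biological replicates. NT skin was not stripped. TS skin was stripped with cellophane tape in 3 sessions per week over 4 weeks, until transepidermal water loss reached 70 to 100 g/m2/h. WB mice had the same stripping plus oral winged bean extract at 200 mg/kg/day, as 20 mg/ml in 0.3% carboxymethylcellulose, 5 times per week for 5 weeks, of which 1 preceded the stripping. The sources used here do not say whether NT and TS mice received the vehicle.

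The ribosome is built from a small subunit, which reads the mRNA, and a large subunit, which joins the amino acids. Rps genes encode proteins of the small subunit and Rpl genes those of the large one, while Rplp0, Rplp1 and Rplp2 form the stalk that recruits translation factors. Ribosomal protein mRNAs are among the most abundant of most cells, and many start with a run of pyrimidines (the terminal oligopyrimidine, or TOP, motif) through which growth signalling adjusts their translation. In skin, growing basal keratinocytes depend on high rates of protein synthesis.

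The start sites are shown because that pyrimidine run is the sequence by which the family is known. RefSeq promoter entries on GRCm38.p6 were matched by gene identifier for 44 of the 51 genes, and the first entry of each gene was read from 15 bases before its start to 15 bases from it. The windows below belong to the 7 genes whose probe sets moved in opposite directions in WB against TS, and to Rpl27a, which held the largest rise. Each is written 5′ to 3′ on the gene's own strand, and capitals mark its longest run of C and T.
Rpl35, chr2:39005117-39005146, minus strand: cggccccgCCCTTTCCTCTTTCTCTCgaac
Rpl22, chr4:152325711-152325740, plus strand: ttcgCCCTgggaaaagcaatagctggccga
Rps9, chr7:3704026-3704055, plus strand: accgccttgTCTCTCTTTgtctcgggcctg
Rpl13a, chr7:45128731-45128760, minus strand: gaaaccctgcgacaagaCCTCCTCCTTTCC
Rps3, chr7:99483695-99483724, minus strand: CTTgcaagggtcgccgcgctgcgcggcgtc
Rpl27a, chr7:109519180-109519209, plus strand: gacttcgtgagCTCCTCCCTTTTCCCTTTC
Rpl41, chr10:128549154-128549183, minus strand: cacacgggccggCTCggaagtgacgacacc
Rps18, chr17:33955651-33955680, minus strand: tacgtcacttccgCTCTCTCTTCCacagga
The runs of Rpl35, Rps9, Rpl13a, Rpl27a and Rps18 were 18, 9, 13, 19 and 11 bases long, and those of Rpl22, Rps3 and Rpl41 were 4, 3 and 3. A marked run can lie anywhere in the window: those of Rps3 and Rpl22 began at -15 and -11 from the annotated start. Whether a marked run opens the mRNA as a TOP motif was not tested.

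A run of at least 8 pyrimidines lay in the 30-base window of 18 of the 44 genes (40.9%), against 11.9% of the 27025 genes with an entry. A run of at least 10 was present in 27.3% against 5.19%. The letters CTTTCC, which can lie inside such a run, were found on the gene's strand in the window of 13.6% of member genes and 1.39% of all. In the whole 300-base entries, searched on both strands, CTTTCC was present in 45.5% of member genes and 26.3% of all. There CCGGAAG, a motif bound by ETS factors, was found in 47.7% against 9.12%, and ATGGCGG, a motif bound by YY1, in 13.6% against 4.19%. The GC box GGGCGG was found in 56.8% against 35.9% and the TATA box TATAAA in 11.4% against 14.2%. None of the 5 motifs contains another, and a match is a string of letters, not a bound site.

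The arrays were skin by their markers: the 6 keratinocyte genes measured averaged 12.11 to 13.34 per array and the 5 dermal fibroblast genes 12.42 to 13.65. The 5 skeletal muscle genes averaged 13.31 to 14.68 on NT arrays. In WB against TS, Krt5 (-3.2) and Krt14 (-2.88) were lower and Trp63 (1.35) higher, and the other keratinocyte genes were not called. Of the fibroblast genes 3 were lower there and 0 higher. Lower as well were 3 of 4 adipocyte genes, both varying T cell genes, all 5 skeletal muscle genes and the endothelial gene Pecam1 (-2.4). Of the 3 macrophage genes 2 were lower and 1 higher. Of all varying probe sets 41.7% were lower and 47.1% higher. The 2 red cell genes on the array were constant. On the array NT 5 the liver markers averaged 15.22, against 6.42 to 6.52 on the TS arrays, and the median member lay at 12.93 there, within the range of the other NT arrays. The array also carries control probe sets at both ends of beta-actin and Gapdh, whose 3′ minus 5′ difference shows how far labelled RNA reaches from the 3′ end. For beta-actin it was -0.51 ± 0.10 in NT, 0.16 ± 0.07 in TS and 5.69 ± 0.25 in WB (SD, n = 6 each). For Gapdh it was -0.59 ± 0.11, -0.44 ± 0.11 and 3.70 ± 0.36. In WB the 5′ end of both controls lay far below the 3′ end on every array. The 3′ ends themselves parted: that of Gapdh stood at 13.19 in TS and 9.52 in WB, and that of beta-actin at 13.47 and 13.49. The controls for 18S ribosomal RNA, the RNA core of the small subunit, went the other way, at -0.34 ± 0.19, -0.17 ± 0.12 and -3.90 ± 0.19. The 18S 3′ control stood at 13.38 in TS and 9.29 in WB, while its 5′ control stood at 13.55 and 13.18.

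**Figure D1:**
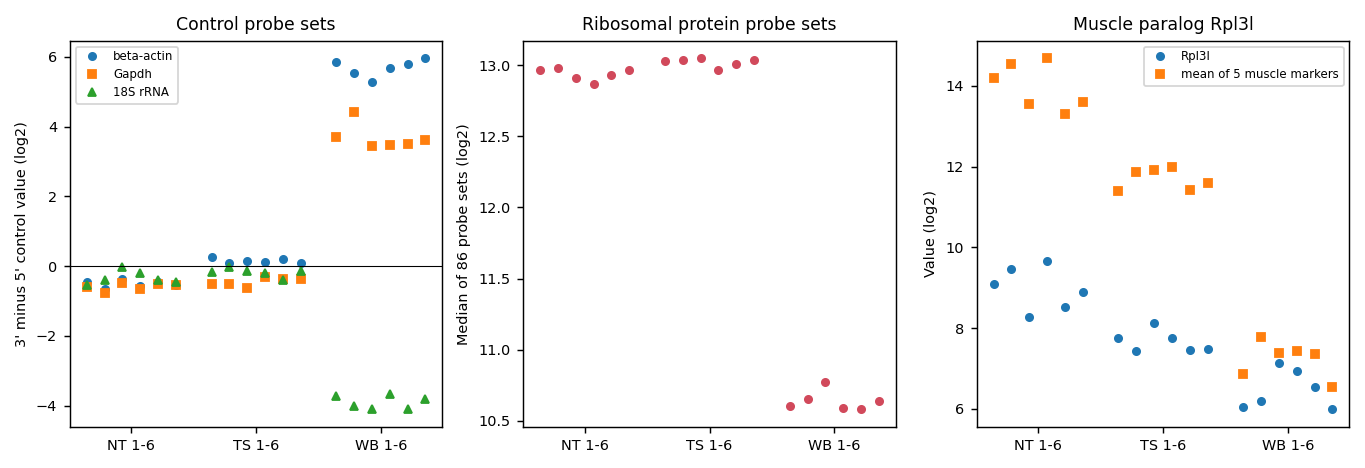
The left panel plots the 3′ minus 5′ difference of the beta-actin, Gapdh and 18S rRNA control probe sets (log2) on each array, the middle panel the median of the 86 varying ribosomal protein probe sets (log2), and the right panel Rpl3l beside the mean of 5 skeletal muscle markers (log2). The WB arrays stand apart in all 3 panels, with actin differences of 5.27 to 5.96, against 0.08 to 0.26 in TS.

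In unstripped skin the ribosomal protein probe sets were bright and even. The median level of the 86 was 12.93 in NT and 13.02 in TS, against 8.68 and 8.67 for all 11946 varying probe sets. Group means ran from 6.68 for a probe set of Rpl27a to 15.48 for one of Rpl37a in NT, and 54 of 86 stood at 12 or more. Levels of different probe sets also depend on their probes and set no order among genes. The median SD over the 6 arrays was 0.054 in NT and 0.056 in TS, against 0.102 and 0.132 over all varying probe sets. In WB the median level was 10.61 and only 29 probe sets stood at 12 or more. Per array, NT medians spanned 12.87 to 12.98, TS medians 12.97 to 13.05 and WB medians 10.58 to 10.77, so that NT and TS touched and WB stood apart.

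The 21 constant probe sets had values of 6.07 to 13.65 with a median of 6.86, and 14 lay under 7.1. They were the only ones for Rps6, the small-subunit protein phosphorylated by the S6 kinases, and for Rps16, Rpl22l1 and the pseudogene Rps15a-ps6. Bright ones were among them: a probe set of Rps28 was listed at 13.65 on all 18 arrays and that of Rpl22l1, a paralog of Rpl22, at 12.08. The largest range among them was 3.9e-08, and the smallest among the varying members was 0.093, for Rpl13a, followed by 0.099.

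Repeated stripping was accompanied by small rises in many ribosomal protein genes and falls in 2. Of the 107 probe sets, 32 were higher in TS than in NT and 2 lower (limma, adjusted p under 0.05 and a difference of at least 0.01). That is 29.9% and 1.87%, against 4.97% higher and 5.14% lower (10.1% in either direction) of all probe sets tested. Of the members 80.4% varied, against 26.5% of all probe sets, and a constant one cannot reach the minimum difference. Among the 86 that varied 37.2% were higher and 2.33% lower, against 18.7% and 19.4% (38.1% in either direction) of all varying probe sets. In either direction 34 of the 86 (39.5%) were called, near the share of all varying probe sets. The rises ran from 0.04 to 0.89 with a median of 0.15, and 28 of 32 were under 0.3. Without NT 5, the array with liver transcripts, 28 were higher and 2 lower. By gene, 20 of 47 had only higher calls, 25 had none, Rpl3l was lower and Rpl22 had calls both ways.

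The median difference over the 86 was 0.07, with 71 above 0, while the median over all varying probe sets was 0.00. The contrast with other bright probe sets depended on the group in which brightness was read. Of 425 other varying probe sets with an NT mean of 12 or more, 43.1% lay above 0 with a median of -0.06. In that set 17.9% were called higher and 28.0% lower. Of the 54 members this bright, 88.9% lay above 0 with a median of 0.09, 37.0% were called higher and 0 lower. With a TS mean of 12 or more instead, 402 others had a median of 0.05, with 30.3% higher and 15.4% lower. The 56 members this bright in TS had a median of 0.08, with 37.5% higher and 0 lower. The groups did not overlap in 25 members, 23 up and 2 down, against 6.59% of all probe sets and 24.9% of the varying ones. Beside these differences, the beta-actin 3′ minus 5′ difference moved by 0.66 from NT to TS and that of Gapdh by 0.15, and their part in shifts of this size was not tested. Markers of skin cell types moved as well: 4 of 6 keratinocyte genes were higher in TS (mean per array 12.11 to 12.66 in NT and 12.99 to 13.34 in TS), while 3 of 4 adipocyte genes (11.00 to 11.70 and 9.18 to 10.22), 3 of 3 macrophage genes (11.07 to 11.82 and 10.53 to 11.11), both varying T cell genes (7.82 to 8.49 and 7.06 to 7.59) and all 5 skeletal muscle genes were lower. The endothelial gene Pecam1 was higher (0.44, adjusted p = 0.00519), and none of the 5 fibroblast genes was called. The part of these shifts in the ribosomal protein values was not tested.

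**Figure D2:**
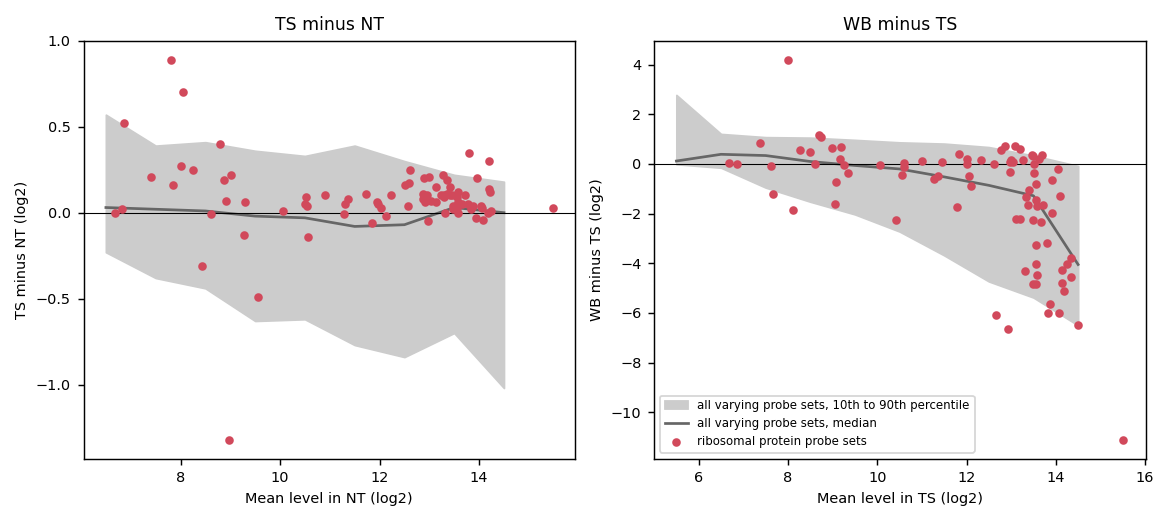
Each point is a varying ribosomal protein probe set, with its TS minus NT difference against its NT mean on the left and its WB minus TS difference against its TS mean on the right (log2). The line and the band give the median and the 10th to 90th percentile of all varying probe sets per level. On the left the bright members lie just above 0, between -0.05 and 0.35, and on the right the falls deepen from a level of 12 upward.

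Large-subunit genes held most of the rises. Of their 39 varying probe sets, 24 were higher and 1 lower, with a median difference of 0.10, against 7 and 0 of 36 for the small subunit, with a median of 0.06. The difference between the subunits was not tested. The fit shares 1 estimate of spread over all 18 arrays, so a wide spread in WB also raises the SE here. Rps10 with 1416719_a_at had an SE of 0.81, against SDs of 0.07 in NT and 0.05 in TS. Fitted on the 12 NT and TS arrays alone, 37 member probe sets were higher and 2 lower. The split of these by subunit is not given here. Rpl35, a protein next to the exit tunnel of the nascent chain, was higher with all 5 of its varying probe sets, by 0.11 to 0.25. Its probe set 1416243_a_at ran from 13.19 through a median of 13.27 to 13.35 in NT and from 13.39 through 13.51 to 13.60 in TS, a rise of 0.22 (SE 0.05, adjusted p = 0.00349). Every TS array lay above every NT array there. The call of another, 1454856_x_at (0.11, SE 0.03, adjusted p = 0.032), was lost without any of NT 3, 4 or 5 or TS 2, 3, 5 or 6, with adjusted p from 0.058 to 0.0773.

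Rpl41, the shortest protein of the ribosome, rose with 3 of 4 probe sets. Its probe set 1433530_at stood at 6.65, 6.89 and 6.97 (lowest, median, highest) in NT and at 7.06, 7.42 and 7.64 in TS, a difference of 0.52 (SE 0.12, adjusted p = 0.00765), and 1454639_x_at rose by 0.40 (SE 0.08, adjusted p = 0.00202). Neither overlapped between the groups. The bright 1422623_x_at rose by 0.19 (SE 0.04, adjusted p = 0.00268), and 1455578_x_at differed by 0.01 (adjusted p = 0.816). Rpl13a, which in human cells can leave the ribosome to silence inflammatory mRNAs, rose with 3 of 4 probe sets, by 0.04 to 0.20. The smallest of them, 1433928_a_at (adjusted p = 0.00273), was not called when only varying probe sets were tested (adjusted p = 0.0948).

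Rpl14 differed by 0.27 (SE 0.08, adjusted p = 0.0415), a call that did not hold without any 1 of 10 of the 18 arrays, NT 1, 2, 4, 5 and 6, TS 1, 2, 3 and 5, and WB 1, with adjusted p from 0.0508 to 0.0986. Rpl22, needed in mice for the development of certain T cells, went both ways. Its probe set 1448398_s_at fell from 9.47, 9.56 and 9.67 in NT to 8.89, 9.07 and 9.26 in TS, a change of -0.49 (SE 0.07, adjusted p = 0.000109). Both brighter ones rose, 1453118_s_at by 0.15 (SE 0.02, adjusted p = 0.000114) and 1416603_at by 0.09 (SE 0.01, adjusted p = 0.000194). No TS array overlapped an NT array for the one that fell. Of 21 genes with 2 or more varying probe sets, Rpl22 was the only one with opposite calls in TS against NT (4.76%, against 1.51% of 2191 genes on the array), and the median spread between the probe sets of a gene was 0.10.

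In the small subunit the largest rise was that of Rps25, which viral internal entry sites need to bind the subunit. Its probe set stood at 7.73, 7.80 and 7.86 in NT and at 8.46, 8.71 and 8.89 in TS, a rise of 0.89 (SE 0.08, 1.86-fold, adjusted p = 2.87e-06). Rps3, at the mRNA entry channel, stood at 7.90, 8.07 and 8.15 in NT and 8.48, 8.74 and 9.01 in TS with 1455600_at, a rise of 0.70 (SE 0.10, 1.62-fold, adjusted p = 0.00013). These were the 2 rises of the family larger than 1.5-fold, and in both every TS array lay above every NT array. The bright Rps3 probe set 1435151_a_at rose by less, 0.10 (SE 0.02, adjusted p = 0.00156).

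Rpsa, a small-subunit protein also known as the laminin receptor, rose from 12.87, 12.99 and 13.09 to 13.16, 13.19 and 13.23, by 0.21 (SE 0.03, adjusted p = 7.49e-05), again without overlap. Rps18, in the head of the subunit, gave 0.35 (SE 0.16) and 0.30 (SE 0.15) with its bright probe sets, which did not pass (adjusted p = 0.169 and 0.215). Their SDs were 0.45 and 0.42 in WB, against 0.10 and 0.08 in TS. Fitted on the 12 NT and TS arrays alone, both passed (adjusted p = 0.0024 and 0.00537). The stalk proteins Rplp0 (0.12, SE 0.05, adjusted p = 0.182) and Rplp2 (0.01, SE 0.12, adjusted p = 1.00) did not pass. Rplp0 passed on the 12 arrays alone (adjusted p = 0.0341), with array quality weights (0.14, adjusted p = 0.0316) and after quantile normalization (0.27, adjusted p = 0.04). Rps19bp1 rose by 0.25 (SE 0.07, adjusted p = 0.0343).

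Some paralogs take the place of a core protein in certain tissues or states. Of the 8 varying probe sets of paralogs, 0 were higher in TS and 1 lower, with a median of -0.04. The fall was that of Rpl3l, the form of Rpl3 made in skeletal and heart muscle, which stood at 8.27, 9.0 and 9.65 in NT and at 7.43, 7.61 and 8.12 in TS. The change was -1.32 (SE 0.25, adjusted p = 0.00191), every TS array lay below every NT array, and it was the only member to change by 1 or more. All 5 skeletal muscle markers also fell, with differences from -3.86 to -1.45, and their mean per array was 13.31 to 14.68 in NT and 11.40 to 12 in TS. Their part in the fall of Rpl3l was not tested, and in whole skin fewer cells of a type and less RNA per cell cannot be told apart. Rps4l, a mouse paralog of Rps4x, differed by -0.31 (SE 0.26, adjusted p = 0.574). Rpl39l, a form known from testis, differed by -0.13 (SE 0.12, adjusted p = 0.676), and the 3 probe sets of Rps27l, known in human cells as a target of p53, by -0.06 to -0.01 with no call. Rpl7l1 gave 0.19 and 0.02 without a call, although the first passed without TS 4 (0.25, adjusted p = 0.0362).

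**Figure D3:**
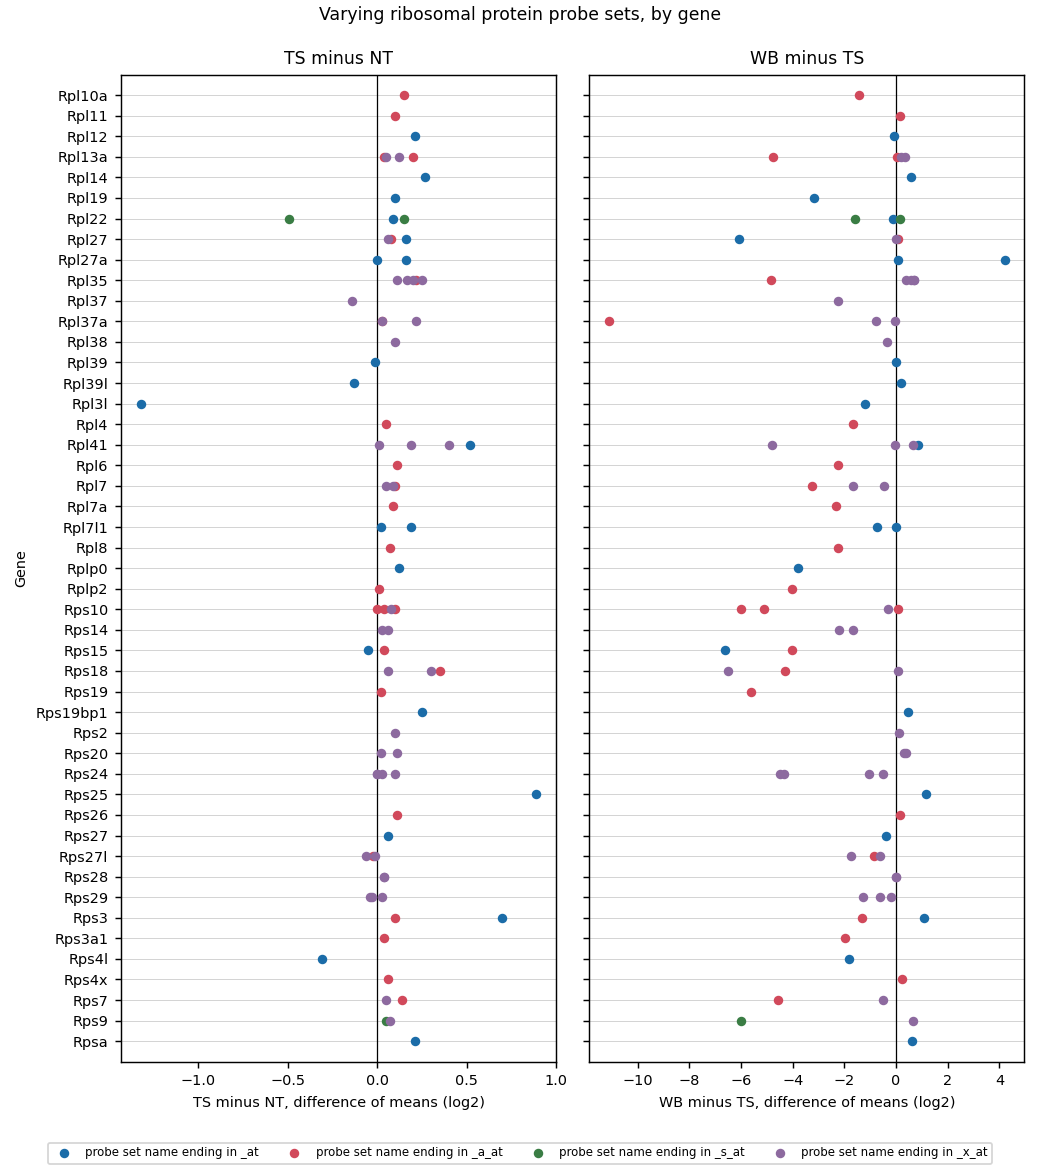
Each point is 1 varying probe set, placed by gene, with the TS minus NT difference of means on the left and WB minus TS on the right (log2, separate scales), coloured by the ending of the probe set name. On the left most points lie between 0 and 0.3, with Rpl3l at -1.32 and Rps25 at 0.89. On the right the points of single genes such as Rpl35, Rps9 and Rpl41 spread over more than 5 units.

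In stripped skin of extract-fed mice more ribosomal protein probe sets were lower than higher, and the falls were far larger than the rises. Of the 107 probe sets, 24 were higher in WB than in TS and 50 lower, 22.4% and 46.7%, against 12.5% and 11.1% (23.6% in either direction) of all probe sets. Of the 86 that varied 27.9% were higher and 58.1% lower, against 47.1% and 41.7% (88.8% in either direction) of all varying probe sets. In either direction 74 of the 86 (86%) were called, near the share of all varying probe sets. After quantile normalization the split was 52 higher and 46 lower and after median centring 51 and 50, where 18 and 21 of the higher ones were probe sets that are constant in the deposited table. The median difference was -0.49, against 0.09 over all varying probe sets. By gene, 26 had only lower calls, 10 only higher, 7 both and 4 none. Groups did not overlap in 72 members, 23 up and 49 down, against 20.6% of all probe sets and 77.6% of the varying ones.

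The falls were deep and the rises shallow. In 37 members (43.0%) the fall was 1 or more, against 22.9% of all varying probe sets, and in 17 members of 13 genes (19.8%) it was 4 or more, against 1.39%. Of the rises 21 of 24 were under 1. Bright probe sets fell in general, as the plot of difference against level shows. Among those with a TS mean of 12 or more, the 56 members had a median of -1.55, with 57.1% falling by 1 or more and 30.4% by 4 or more, while 402 others had a median of -1.11, with 51.5% and 18.9%. All 11 members with a TS mean of 14 or more were lower, with a median of -4.55, and the 22 other varying probe sets this bright had a median of -4, with 19 lower. Every WB array carried the wide 3′ minus 5′ difference of the controls, so the extract and whatever set that difference cannot be told apart in these arrays.

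The kind of probe set went with the size of the fall over all levels, but the kinds also differed in level. Members with names ending in _a_at, which Affymetrix gave to probe sets matching several transcripts of 1 gene, had a median of -2.26 (25 probe sets, 19 lower), against -0.35 for all varying ones of that kind. Those ending in _x_at, whose probes may also match other genes, had a median of -0.33 (37 probe sets), against 0.52, and those ending in plain _at -0.01 (21 probe sets), against 0.07. Of these 3 kinds of members 23, 26 and 5 had a TS mean of 12 or more. At that level the medians were -2.34, -0.35 and -3.78, with 19, 15 and 4 lower, so bright plain _at members fell as well. By the accession of the target sequence, the median was -1.97 for the 39 taken from RefSeq or cDNA records and -0.01 for the 27 from expressed sequence tags, against -0.39 and 0.37 over all varying probe sets. Ribosomal protein genes have many processed pseudogenes, and neither matches of the probes to these nor their positions along the transcripts were used here.

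Large-subunit genes had 13 probe sets higher and 19 lower of 39, with a median of -0.09. The deepest fall was that of Rpl37a, a zinc-binding protein of the large subunit, with 1416217_a_at. This probe set was the brightest member in TS, at 15.45, 15.51 and 15.56 (lowest, median, highest), and the dimmest in WB, at 4.26, 4.39 and 4.59, a difference of -11.10 (SE 0.05, adjusted p = 7.47e-26). Its WB mean lies below the array median of 6.90, so no fold is given. The other probe sets of the same gene differed by -0.79 (SE 0.04, adjusted p = 1.17e-10) and by -0.03 (SE 0.07, adjusted p = 0.82), so that readings of a single gene spread over 11.07 units.

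Rpl35 gave falls and rises at once. Its probe set 1416243_a_at fell from 13.39, 13.51 and 13.60 in TS to 8.53, 8.66 and 8.79 in WB (-4.85, SE 0.05, 28.8-fold, adjusted p = 1.37e-20). Its 4 others rose by 0.40 to 0.71, with 1455950_x_at going from 12.94, 13.12 and 13.16 to 13.68, 13.81 and 13.91 (0.71, SE 0.04, adjusted p = 9.39e-10). TS and WB arrays overlapped in neither of these. In TS against NT the same probe sets had risen together. Rpl13a fell by 4.78 (SE 0.04, adjusted p = 4.45e-22) with 1417608_a_at and rose by 0.36 (SE 0.02, adjusted p = 3.13e-09) and 0.20 (SE 0.02, adjusted p = 9.07e-07) with 2 others. Rpl41 fell by 4.82 (SE 0.04, adjusted p = 7.81e-22) with 1422623_x_at and rose by 0.83 and 0.67 with 1433530_at and 1454639_x_at (SE 0.12 and 0.08). Its probe set 1455578_x_at differed by -0.04 without a call, and by 0.06 with one after quantile normalization (adjusted p = 0.0121). Rpl22 fell by 1.60 (SE 0.07, adjusted p = 6.31e-12) and 0.11 (SE 0.01, adjusted p = 2.2e-06) and rose by 0.16 (SE 0.02, adjusted p = 5.54e-06), and the smaller fall turned to 0.01 after quantile normalization (adjusted p = 0.642).

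Rpl27, in contrast, fell by 6.07 (SE 0.04, adjusted p = 1.57e-22) with 1416099_at, while its 2 other probe sets differed by 0.08 and 0.01 and did not pass. Some genes moved little: Rpl39, which lines the exit tunnel, differed by 0.01 (SE 0.02, adjusted p = 0.728). Rpl11, which with Rpl5 holds the 5S RNA and binds Mdm2, rose by 0.16 (SE 0.01, adjusted p = 5.63e-08). Rpl10a fell by 1.45 (SE 0.02, adjusted p = 6.26e-18), and its 6 WB arrays lay between 12.10 and 12.12, the smallest WB spread of the family (SD 0.00511).

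In the small subunit 10 of 36 varying probe sets were higher and 23 lower, with a median of -0.56. Rps15, in the head of the subunit, fell from 12.88, 12.94 and 13 to 6.11, 6.33 and 6.5 with 1416089_at (-6.63, SE 0.05, adjusted p = 7.16e-22) and differed by -4.04 (SE 0.05, adjusted p = 2.23e-19) with its other probe set. Rps18 fell from 14.39, 14.5 and 14.59 to 7.57, 7.81 and 8.55 with 1448739_x_at (-6.5, SE 0.15, 90.6-fold, adjusted p = 2.37e-15) and by 4.29 with 1435712_a_at (SE 0.16). No TS and WB arrays overlapped for any of these. Its remaining probe set rose by 0.09 (SE 0.02, adjusted p = 0.00437).

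Rps9, near the decoding site, fell from 13.76, 13.82 and 13.93 to 7.69, 7.81 and 7.90 with 1433689_s_at (-6.02, SE 0.04, 64.7-fold, adjusted p = 4.04e-23). Its other probe set stood at 8.73, 9.01 and 9.20 in TS and 9.44, 9.62 and 9.89 in WB (0.65, SE 0.10, adjusted p = 2.55e-05). Both were free of overlap, in opposite directions. Rps3 likewise fell by 1.32 (SE 0.02, adjusted p = 7.6e-18) with the bright 1435151_a_at and rose by 1.08 (SE 0.10, adjusted p = 8.16e-08) with 1455600_at. Rps19, which in humans is mutated in many families with Diamond-Blackfan anaemia, fell by 5.63 (SE 0.10, adjusted p = 1.14e-16). The 4 probe sets of Rps24 fell by 0.50 to 4.48, and the 2 of Rps7 by 0.49 and 4.55.

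Rises without a fall were seen in a few small-subunit genes. Rps25 went from 8.46, 8.71 and 8.89 to 9.70, 9.86 and 10.07 (1.17, SE 0.08, 2.25-fold, adjusted p = 2.28e-09), the second rise of the family by size. Rpsa went from 13.16, 13.19 and 13.23 to 13.78, 13.80 and 13.84 (0.61, SE 0.03, adjusted p = 1.19e-11). In both every WB array lay above every TS array. Rps4x, encoded on the X chromosome, rose by 0.22 (SE 0.01, adjusted p = 8.07e-11), Rps26 by 0.15 (SE 0.02, adjusted p = 2.29e-06) and Rps20 by 0.32 and 0.37 with its 2 probe sets. Both varying probe sets of Rps28 differed by 0.00 (SE 0.01, adjusted p = 1.00).

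**Figure D4:**
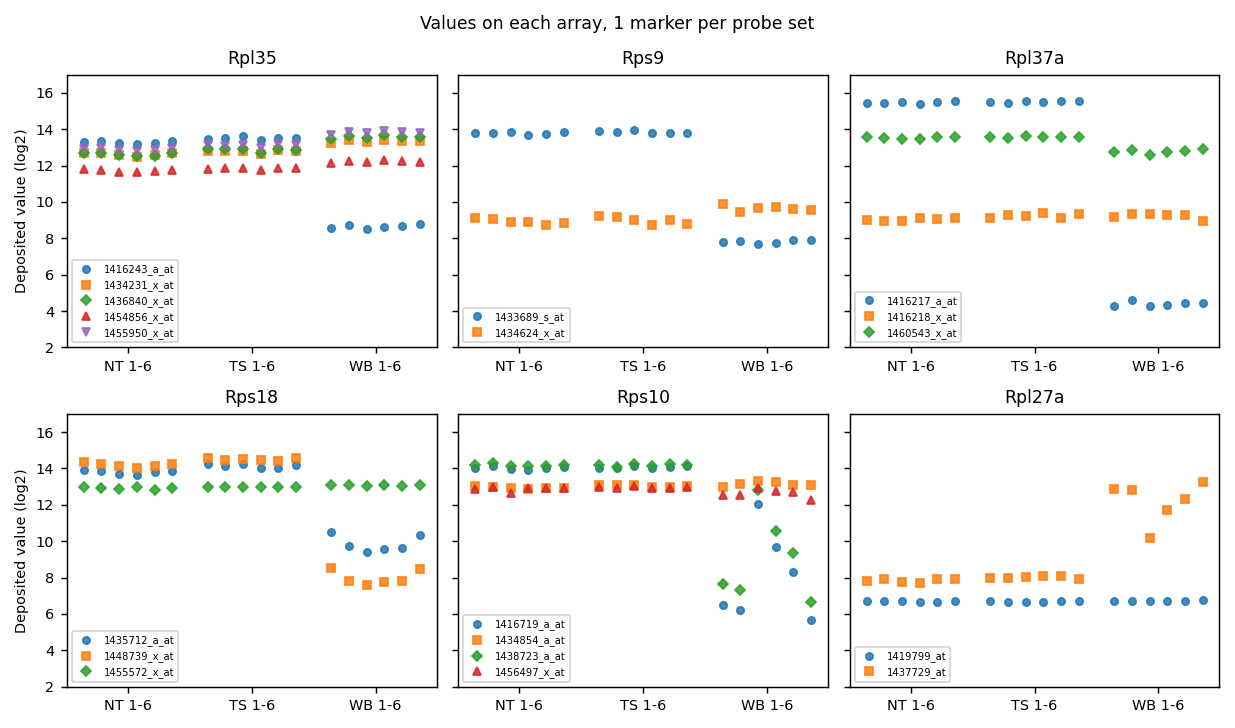
Deposited values (log2) of every varying probe set of Rpl35, Rps9, Rpl37a, Rps18, Rps10 and Rpl27a on each of the 18 arrays, 1 marker shape per probe set, with the arrays of NT, TS and WB from left to right in each panel. In NT and TS the markers of a probe set lie on a level line, while in WB 1 or 2 probe sets of each gene except Rpl27a drop far below their TS level and others do not, as for Rps9 at 7.81 and 9.64. For Rpl27a 1 probe set rises by 4.20, and this one and the 2 falling ones of Rps10 scatter between the WB arrays.

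Rps10 and Rpl27a stood out by their spread within WB. Rps10, in the head of the small subunit, stood at 14 to 14.14 in TS with 1416719_a_at, and at 6.47, 6.23, 12.04, 9.70, 8.31 and 5.69 on WB 1 to 6. Its mean difference was -5.99 (SE 0.81, adjusted p = 1.18e-05), and its WB SD of 2.45 was the largest of the family. Its probe set 1438723_a_at (-5.12, SE 0.78, adjusted p = 3.83e-05) ranked the WB arrays in the same order, WB 3 highest and WB 6 lowest, while 1456497_x_at differed by -0.33 (SE 0.09, adjusted p = 0.00421) and 1434854_a_at by 0.09 (adjusted p = 0.112). Rpl27a, with 1437729_at, stood at 7.92 to 8.06 in TS and at 12.89, 12.84, 10.20, 11.70, 12.32 and 13.24 on WB 1 to 6, a rise of 4.20 (SE 0.37, 18.3-fold, adjusted p = 8.72e-08). It is the only rise of the family above 1.17.

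With 1416719_a_at and 1438723_a_at of Rps10 and 1437729_at of Rpl27a every WB array lay outside the TS range. WB 3 was highest and WB 6 lowest for both of these Rps10 probe sets, and WB 3 lowest and WB 6 highest for Rpl27a. The beta-actin 3′ minus 5′ difference was lowest on WB 3 (5.27) and highest on WB 6 (5.96), with 5.86, 5.54, 5.69 and 5.80 on WB 1, 2, 4 and 5. That of Gapdh was also lowest on WB 3 (3.45) but highest on WB 2 (4.41), with 3.63 on WB 6. That of 18S was lowest on WB 3 (-4.1) and highest on WB 4 (-3.66), with -3.81 on WB 6. The part of these controls in the spread was not tested. The second probe set of Rpl27a stood at 6.68 in TS and 6.74 in WB. In 50 of the 86 members the WB SD was under 0.1, in 32 it was 0.1 to 0.5 and in 4 it was 0.5 or more.

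Both stalk proteins with varying probe sets fell. Rplp0 went from 14.23, 14.34 and 14.40 to 10.35, 10.55 and 10.76 (-3.78, SE 0.05, 13.7-fold, adjusted p = 3.24e-18) and Rplp2 from 14.15, 14.23 and 14.44 to 9.80, 10.16 and 10.79 (-4.03, SE 0.12, 16.4-fold, adjusted p = 7e-14). TS and WB did not overlap in either. Of the 8 paralog probe sets 6 were lower and 0 higher, with a median of -0.80. Rps4l fell by 1.84 (SE 0.26, adjusted p = 1.94e-05), the 3 of Rps27l changed by -1.75 to -0.61, and Rpl7l1 fell by 0.74 with 1 of 2. Rpl3l fell further, to 5.99, 6.36 and 7.14 (-1.19, SE 0.25, adjusted p = 0.000928), beside falls in the 5 muscle markers, with differences from -5.66 to -3.84. Rpl39l differed by 0.20 (SE 0.12, adjusted p = 0.212).

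Probe sets of the same gene parted widely in WB against TS. There 7 of the 21 genes with 2 or more varying probe sets had calls in both directions (33.3%, against 44.9% of 2191 genes on the array): Rpl13a, Rpl22, Rpl35, Rpl41, Rps18, Rps3 and Rps9. The median spread within a gene was 3.98, against 1.17 over all genes. It exceeded 1 in 81.0% of member genes, against 55.1%, and exceeded 4 in 47.6%, against 3.88%. The 2191 genes were not matched to the members in level or in number of probe sets. Bright probe sets fell in general, and the part of level in these spreads was not tested. For these genes the WB level depends on which probe set is read.

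WB against NT shares its arrays with both comparisons above. There 31 probe sets were higher and 49 lower (29.0% and 45.8%), against 12.1% and 11.6% (23.7% in either direction) of all probe sets. Of all varying probe sets 45.7% were higher and 43.6% lower (89.3% in either direction). The median member difference was -0.45. Without NT 5 it was -0.48, with 28 higher and 49 lower. Quantile normalization gave 56 higher and 46 lower and median centring 54 and 49, including 18 and 21 higher ones that are constant in the deposited table. For these settings too the shares of all probe sets are not given. Rps25 stood 2.06 (SE 0.08) above NT, Rps3 with 1455600_at 1.78 (SE 0.10), Rpl41 with 1433530_at 1.34 (SE 0.12), Rpl27a with 1437729_at 4.35 (SE 0.37) and Rpsa 0.81 (SE 0.03). Rpl37a with 1416217_a_at stood 11.07 (SE 0.05) below it, with a difference of -11.07. Of the 47 genes, 23 had only lower calls, 11 only higher, 10 both and 3 none.

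Other parts of the translation apparatus were read with 1 probe set per gene, that of the highest mean. Their counts in TS against NT stand beside 18.7% higher and 19.4% lower of all varying probe sets, and 4.97% and 5.14% of all. Of 68 ribosome assembly genes, 28 were higher and 0 lower in TS than in NT, with a median of 0.32 over the 44 that varied. They included Pes1 (0.55, SE 0.06, adjusted p = 3.00e-05), needed to mature the large subunit, and Polr1d (0.37, SE 0.04, adjusted p = 1.03e-05), a subunit of RNA polymerases I and III. Of 47 genes with initiation factor symbols 23 were higher and 2 lower, with a median of 0.21 over 35, among them Eif2s2 (0.24, SE 0.03) and Eif1ax (0.18, SE 0.02). Elongation and release factors were higher in 4 and lower in 1 of 15, with Eef1b2 at 0.14 (SE 0.02) and the muscle and nerve form Eef1a2 at -0.75 (SE 0.13). Mitochondrial ribosomal protein genes were higher in 8 and lower in 5 of 76, with a median of 0.05 over 64.

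In WB against TS these lists split, where 47.1% of all varying probe sets were higher and 41.7% lower, so counts in either direction say little about a list. Assembly genes were higher in 23 and lower in 17, initiation factors in 17 and 16, elongation and release factors in 4 and 4, and mitochondrial ribosomal proteins in 20 and 42, with medians of 0.21, 0.01, 0.14 and -0.84. Pes1 fell by 2.5 (SE 0.06) and Polr1d rose by 0.96 (SE 0.04). Rpf2, an assembly factor of the large subunit, rose by 3.92 (SE 0.07, adjusted p = 2.24e-16). Among the elongation factors Eef2 (-3.15, SE 0.06) and Eef1a1 (-2.18, SE 0.05) fell and Eef1b2 rose by 0.17 (SE 0.02), and in the same list Pabpc1, the poly(A)-binding protein, rose by 0.37 (SE 0.03, adjusted p = 2.28e-08). Fau, whose product is cleaved to a small-subunit protein although its symbol falls outside the rule, stood at 13.48 in NT, 13.58 in TS and 10.49 in WB. Its TS minus NT difference of 0.10 did not pass (adjusted p = 0.313), and it fell by 3.09 in WB against TS (SE 0.06, adjusted p = 2.55e-16).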

How the data were processed

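Values of 18 Affymetrix mouse arrays (NT, TS and WB, 6 each) were used as deposited, per probe set. Per the labels' protocols, RNA was extracted with Isogen, cleaned on RNeasy columns and labelled from 100 ng. The authors' method of summarising and normalizing was not given in the sources used here. From their range, the deposited values were taken as log2; folds depend on that base. The number of arrays limits the precision.

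Control probe sets were left out of the 45101, and the other 45037 entered a single limma fit (version 3.58.1, R version 4.3.3) of the 18 arrays by group without covariates. Tests were two-sided and moderated by eBayes, with Benjamini-Hochberg adjustment over all of them per comparison. A call needed an adjusted p under 0.05 and a difference of at least 0.01. Adjusted p-values come from it except where another fit is stated. The fit was also run on simulated data with independent noise of equal spread in every group. That run cannot check calls on probe sets that spread more widely in WB. Where 3 values of a group are given, they are the lowest, median and highest of 6 arrays. Folds are not given where the lower mean lies under the array median. Replicates are labelled biological, but the labels do not tie arrays to animals.

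Members, gene lists and the rule for named genes were chosen with earlier results of these data known. The rule names the 6 largest rises and falls per comparison, genes with opposite calls, stalk proteins, Rpsa and paralogs. In the other lists it names the 2 smallest p-values per direction, and only some of those genes are given here. Other members were named after their values were seen. Same-numbered arrays of different groups correlated in their deviations at r of -0.268 to 0.138, which does not settle whether the numbers pair them. Alternatives were quantile normalization, median centring, a filter on dim probe sets, varying probe sets only, array weights, a trended robust fit, 12 arrays, a replicate block, other minimum differences or ranges, 1 probe set per gene, and leaving out each array.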

Additional observations from a re-analysis of the deposited data

Results flagged for a closer look

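In 123 groups of 6 arrays (41 named probe sets), 9 held an array whose gap to the next value was too large a share of the group's range by Dixon's criterion at 95%, where chance gives about 1 in 20 groups. Of these, 5 were the low array TS 4. Rpl35 stood there at 12.64 (next value 12.78), 12.67 (12.86) and 12.94 (13.08) with 1434231_x_at, 1436840_x_at and 1455950_x_at, and Rps27l at 11.07 (11.29) and 11.78 (12.11) with 1435429_x_at and 1450925_a_at. The probe sets of a gene share its RNA on an array and are not independent. Rpl27 with 1416099_at was low on NT 4, at 12.37 (next value 12.51). Rpl13a with 1455001_x_at was high on TS 1, at 12.07 (12.01). Rpl14 was high on NT 3, at 8.08 (7.99). Rps4l was high on WB 3, at 7.33 (6.31).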

How the results depend on the processing

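Requiring a difference of at least 1.5-fold left 2 higher and 1 lower probe set in TS against NT, 9 higher and 42 lower in WB against TS, and 12 higher and 41 lower in WB against NT. Shares of all probe sets at this threshold or under the other alternatives are not given here. The counts in this section therefore describe the members only, and bright probe sets fell in general in WB. Quantile normalization and median centring gave 52 and 51 higher in WB against TS and 56 and 54 in WB against NT. There the shift moved constant probe sets past the threshold, and more varying members were called higher as well. Of the varying members 34 and 30 were higher in WB against TS, where the main fit called 24. In WB against NT it was 38 and 33, where the main fit called 31. The median difference in TS against NT was 0.13 after quantile normalization. In WB against TS it was -0.33 after quantile normalization, -0.46 after centring, -0.55 with the filter on dim probe sets or a range of at least 0.1, and -0.74 with 1 probe set per gene. In WB against NT the same settings gave -0.26, -0.41, -0.51 and -0.55. Leaving out 1 array gave 27 to 34 higher and 2 to 2 lower in TS against NT (median 0.06 to 0.09), 24 to 25 and 50 to 51 in WB against TS (-0.52 to -0.47), and 28 to 32 and 48 to 50 in WB against NT (-0.48 to -0.43). With the replicate number as a block, TS against NT gave 27 higher and 2 lower, WB against TS 24 and 51, and WB against NT 30 and 48. Same-numbered arrays correlated in their deviations at r of -0.268 to 0.138, and 10 of 36 array and group pairs matched best with their own number. These values cannot settle whether the numbers pair the arrays, which the labels do not say. Of 935 values of named probe sets under the alternatives in TS against NT, 894 kept direction and side of the threshold, as did 1024 of 1039 in WB against TS and 1031 of 1039 in WB against NT. Sign changes touched values near 0. In TS against NT, Rplp2 gave -0.01 and -0.03 without NT 4 and TS 1, Rpl7l1 with 1439780_at -0.01 without TS 3, Rps27l with 1435429_x_at 0.03, 0.01, 0.00 and 0.03 and with 1450925_a_at 0.03, 0.01 and 0.05 (quantile normalization, array weights, and without NT 2, for the first only, or TS 4), with no call. In WB against TS, Rpl22 with 1416603_at gave 0.01 after quantile normalization, and Rpl7l1 with 1439780_at 0.02 and 0.03 after quantile normalization and centring and 0.02, 0.00 and 0.00 without TS 3, TS 6 or WB 6, with no call. Rpl41 with 1455578_x_at (-0.04, no call) was called at 0.06 after quantile normalization (adjusted p = 0.0121), and at -0.06 with array weights (adjusted p = 0.00704). In WB against NT quantile normalization and centring gave it 0.10 (adjusted p = 0.000237) and 0.01, and gave Rpl22 with 1416603_at 0.12 (adjusted p = 3.08e-07) and 0.02, while Rpl7l1 with 1439780_at gave -0.00 without NT 5 or WB 1. Without a background measure in the deposited values, falls to levels under the array median have no certain size. The cause of the changed values was otherwise not tested.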
